A study of Mus musculus with 6 samples.

Results

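The respiratory chain of the inner mitochondrial membrane is built from 2 genomes. Complexes I, III and IV pass electrons from NADH and succinate to oxygen and pump protons, complex II feeds electrons in from succinate, and complex V uses the proton gradient to make ATP. A few core subunits of complexes I, III, IV and V are encoded on the mitochondrial genome, which is transcribed as long polycistronic RNAs that are cut at the tRNAs between the genes. All other subunits, and every subunit of complex II, are encoded in the nucleus and imported. A balanced supply of both sets is needed for assembly of the complexes.

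The genes described here were chosen by a rule on their symbols: subunits of complexes I to V, with mitochondrially encoded genes beginning with mt-Nd, mt-Co, mt-Atp or mt-Cytb, and nuclear genes with Nduf (a, b, c, s or v and a digit), Sdha to Sdhd, Uqcr, Cox4 to Cox8 or Atp5. The selection found 103 of 34099 genes, of which 13 were mitochondrial and 90 nuclear. The mitochondrial set holds 7 genes of complex I, 1 of complex III, 3 of complex IV and 2 of complex V. The nuclear set holds 40 genes of complex I, 4 of complex II, 8 of complex III, 19 of complex IV and 19 of complex V. Genes were assigned to a complex by symbol, so Ndufa4 and Ndufa4l2 are counted with complex I although the Ndufa4 protein is known as a subunit of complex IV. The rule reads no measured value, but the set was proposed with earlier results of these data known, and the cell classes rest on clustering of the same cells, so differences between classes are given as a description with no test.

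Tumors were grown from H22, a mouse hepatocellular carcinoma line, injected into the liver of wild type male C57BL/6J mice obtained at 8 weeks of age. The stress group (n = 3 mice) had been exposed to chronic unpredictable mild stress, 2 stressors a day for 21 days, before the tumor cells were injected, and the control group (n = 3 mice) carried the same tumors without stressors. Dissociated tumor tissue was profiled by droplet 3′ RNA sequencing with unique molecular identifiers (UMIs), and 58794 annotated cells of 10 classes remained of 61374 barcodes. The libraries held 149558935 to 187728350 UMIs in annotated cells, and this total was higher in all control libraries than in all stress libraries. The median UMIs per tumor cell were 21971, 26149 and 32523 in control mice 1 to 3. They were 32080.5, 31343 and 31042 in stress mice 1 to 3. Control libraries were counted with Cell Ranger 9.0.0 and stress libraries with Cell Ranger 7.1.0, so the software version and the group cannot be told apart in any comparison below. Library pairs shared 14 to 43 cell barcodes. The nuclear transcript Malat1, high in damaged cells that have lost cytoplasm, took 0.355%, 0.357% and 0.331% of tumor cell UMIs in the control mice and 0.481%, 0.434% and 0.694% in the stress mice, and its part in the results was not tested.

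The deposited cell classes were checked against marker genes. All markers were highest in their own class for endothelial cells (ECs, 7 of 7), NK/T cells (6 of 6), B cells (4 of 4), inflammatory myeloid cells (4 of 4) and hepatic stellate cells (HSCs, 6 of 6). The counts were 5 of 7 in monocytes, 5 of 6 in DCs (dendritic cells) and 4 of 5 in neutrophils. The class labelled M-MDSCs went against its name, since none of its 4 markers was highest there. In that class Arg1 was at 3.91 CPM (UMIs scaled to a total of 1e+06 per mouse and class) against 1396 CPM in monocytes, while the tumor markers Krt18 (340 CPM) and Cldn6 (135 CPM) were near their tumor cell levels of 423 and 137 CPM. The label is kept below as a name only. In tumor cells 3 of 5 markers were highest, with Krt8 and Epcam higher in HSCs. Krt18 was also counted in the immune cells and ECs, from 53.6 CPM in neutrophils to 223 CPM in DCs, and the part of tumor cell RNA in the values of those classes was not tested.

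Both sequences below were chosen because the genes that differed most between the groups are the short first reading frames of 2 overlapping pairs on the mitochondrial genome. mt-Atp8 (chromosome M, 7766 to 7969, plus strand, GRCm38) runs into mt-Atp6 (7927 to 8607), and mt-Nd4l (9877 to 10173) runs into mt-Nd4 (10167 to 11544). Each line gives 40 bases before the shared stretch, the shared stretch in capitals and 40 bases after it, from the GENCODE M21 transcripts, 5′ to 3′.
mt-Atp8 and mt-Atp6: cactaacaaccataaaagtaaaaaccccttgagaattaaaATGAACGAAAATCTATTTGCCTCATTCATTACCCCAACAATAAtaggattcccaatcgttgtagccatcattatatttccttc
mt-Nd4l and mt-Nd4: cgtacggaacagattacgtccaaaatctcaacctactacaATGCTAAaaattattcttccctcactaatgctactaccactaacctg
The pairs share 43 and 7 bases, and the capitals begin with the ATG of the second gene of each pair. The first and second gene of a pair are known to lie on a single mature transcript. Where the reads fell along it was not examined. mt-Atp8 (204 bases), mt-Nd4l (297 bases) and mt-Nd3 (348 bases) are the 3 shortest of the 13 genes.

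In tumor cells the mitochondrial set took a larger share of the UMIs in stress mice than in control mice, while the share of the nuclear set was nearly equal. The 13 mitochondrial genes made up 3.71%, 3.99% and 4.70% of UMIs in control mice 1 to 3 and 5.46%, 5.72% and 5.41% in stress mice 1 to 3. Each stress mouse exceeded each control mouse, with means of 4.13% ± 0.511 and 5.53% ± 0.165 (SD, n = 3 each). The 90 nuclear genes made up 2.51%, 2.53% and 2.52% in the controls and 2.53%, 2.56% and 2.45% in stress mice. These values overlapped, and their coefficient of variation over the 6 mice was 1.44%, against 17.3% for the mitochondrial set. Taken over both groups, the coefficient of variation includes any difference between the groups. The number of mitochondrial UMIs for each nuclear UMI was therefore 1.64 ± 0.202 in control and 2.20 ± 0.0413 in stress mice. Shares are given without a test, since they sum over genes chosen with earlier results known. A share is also closed to a total, and fewer UMIs from other genes cannot be told apart from more UMIs of the set.

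**Figure D1:**
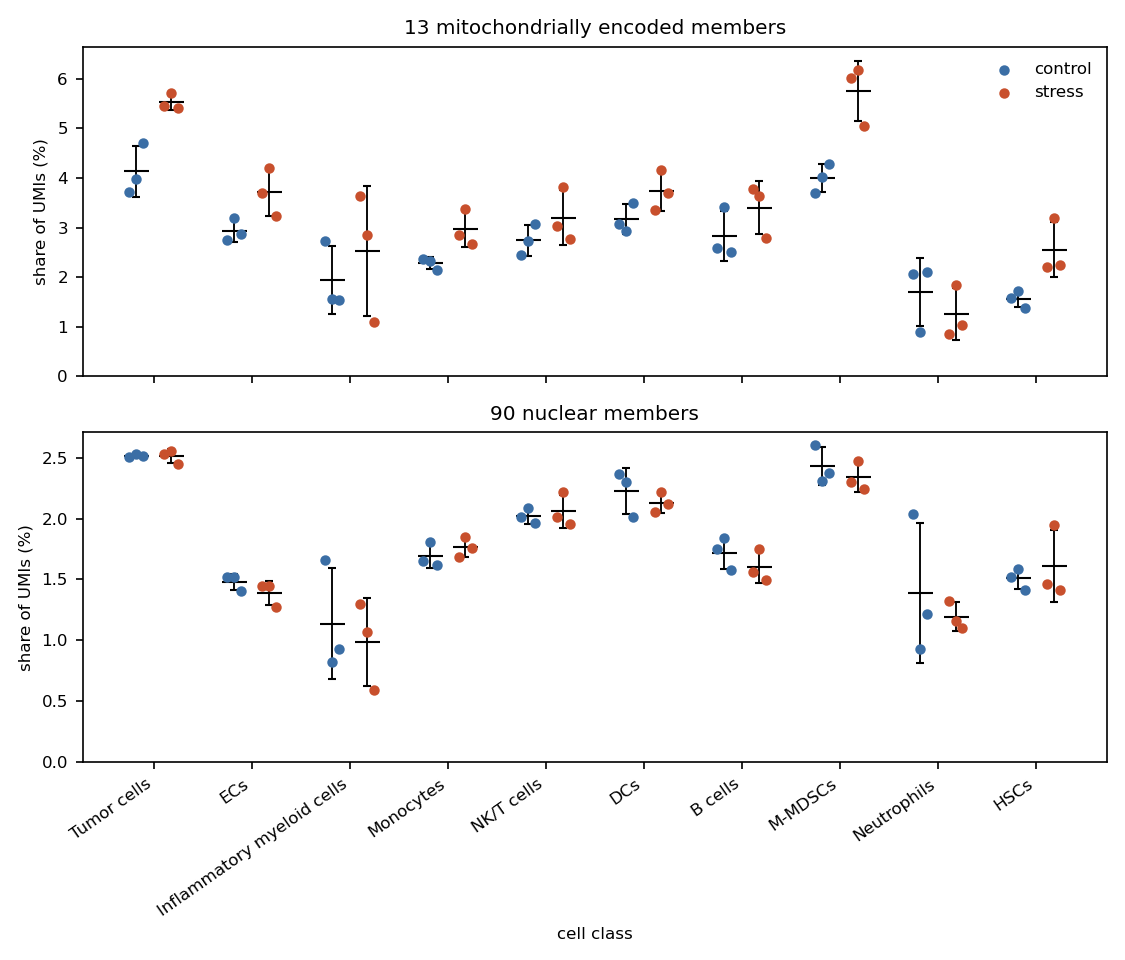
Share of UMIs (%) from the 13 mitochondrial (top) and 90 nuclear (bottom) respiratory chain genes in each cell class, with 1 point per mouse and the mean and SD of 3 mice per group in black. In tumor cells the stress mice sit at 5.41% to 5.72% and the control mice at 3.71% to 4.70% for the mitochondrial set, while the nuclear set lies at 2.45% to 2.56% in all 6 mice.

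The same order held by complex. Of tumor cell UMIs, mitochondrial complex I genes took 0.709% ± 0.0697 in control and 1.09% ± 0.0797 in stress mice, and nuclear complex I genes took 0.763% ± 0.00475 and 0.749% ± 0.0366. For complex IV, the cytochrome c oxidase, the mitochondrial genes were at 1.80% and 2.29% on average and the 19 nuclear genes were at 0.764% and 0.769%. For complex V, the ATP synthase, the mitochondrial genes were at 1.23% and 1.53% and the nuclear genes at 0.727% and 0.738%. Complex II, which has no mitochondrial gene, was at 0.0331% ± 0.000615 in control and 0.0312% ± 0.00257 in stress mice.

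Across classes the mitochondrial mean was higher in stress mice in 9 of 10 classes, the exception being neutrophils, and the groups did not overlap in tumor cells, ECs, monocytes, M-MDSCs and HSCs. ECs had 2.76%, 3.20% and 2.86% mitochondrial UMIs in the controls and 3.71%, 4.21% and 3.23% in stress mice. The nuclear set in ECs was at 1.48% ± 0.0676 in control and 1.39% ± 0.1003 in stress mice, with overlap. Monocytes were at 2.28% ± 0.118 and 2.97% ± 0.368 for the mitochondrial set and were at 1.69% ± 0.0975 and 1.76% ± 0.0816 for the nuclear set. In NK/T cells, DCs, B cells and inflammatory myeloid cells the mitochondrial shares of the groups overlapped. The nuclear set overlapped between the groups in all 10 classes. Labels number the mice within each group but state no pairing. Taken by number, mice deviated together in ECs, monocytes and NK/T cells, though some unlike-numbered mice in ECs and monocytes did so as well. Within same-numbered pairs the nuclear share was lower under stress in 3 of 3 in ECs, by -0.0729, -0.0746 and -0.130 percentage points. As a mean over cells the EC group difference was 0.0187. In monocytes the nuclear share was higher in 3 of 3 pairs, by 0.0337, 0.0441 and 0.133. The mitochondrial share was higher in 3 of 3 pairs in both classes, by 0.372 to 1.01 in ECs and 0.492 to 1.05 in monocytes. In NK/T cells the mitochondrial differences were 0.576, 1.09 and -0.305. Neutrophils (4 cells in 1 control mouse) and HSCs (6 cells in 1 control mouse) had too few cells for a test and are given as values only. HSCs held 1.59%, 1.73% and 1.38% mitochondrial UMIs in the controls and 2.21%, 3.19% and 2.25% in stress mice.

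The 2 sets also differed in how they ranked the classes. Averaged over the 6 mice, tumor cells had a nuclear share of 2.52%, DCs of 2.18%, NK/T cells of 2.04%, monocytes of 1.73% and ECs of 1.43%. The mitochondrial share was 4.83% in tumor cells and 3.46% in DCs, but 3.33% in ECs, above NK/T cells at 2.97% and monocytes at 2.62%. The number of mitochondrial UMIs for each nuclear UMI was accordingly highest in ECs (2.33 ± 0.410, SD over 6 mice) and lowest in neutrophils (1.16 ± 0.422). In control mice alone it was lowest in HSCs, at 1.04, with neutrophils at 1.25. Depth differed widely between these classes, with a median of 27716 UMIs per cell in tumor cells, 4538 in ECs and 1547 in inflammatory myeloid cells.

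To test single genes, UMIs were summed per mouse and class and compared with edgeR's quasi-likelihood test, adjusted over all genes that passed its filter on low counts (adjusted p under 0.05 counted as called). All 13 mitochondrial genes passed the filter in each of 8 tested classes, and 86 of 90 nuclear genes passed in tumor cells. Cox8b, Cox8c and Ndufb11b, with 6, 1 and 6 UMIs in all annotated cells, passed in no class. In tumor cells 8 of 13 mitochondrial genes were called higher in stress mice and 0 lower, where 12% of the 18856 genes tested were called higher, 9.46% lower and 21.4% in either direction. The median log2 fold change of the 13 genes was 0.50, against -0.01 over all genes tested.

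The genes with the largest fold changes were mt-Atp8, an accessory subunit of the ATP synthase, mt-Nd4l and mt-Nd2, both membrane subunits of complex I. mt-Atp8 was at 84.1, 73.2 and 70.8 CPM in control mice and 199, 228 and 321 CPM in stress mice, giving a fitted log2 fold change of 1.56 (SE 0.17, adjusted p = 0.00392 by edgeR). mt-Nd4l was at 96.0, 98.2 and 97.3 CPM in control mice and 216, 229 and 347 CPM in stress mice (fitted log2 fold change 1.30, SE 0.17, adjusted p = 0.00489 by edgeR). mt-Nd2 was at 1002, 1117 and 1235 CPM in control mice and 2566, 2716 and 2429.6 CPM in stress mice (1.06, SE 0.12, adjusted p = 0.00392 by edgeR). For all 3 genes every stress mouse was above every control mouse.

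Of the remaining complex I genes, mt-Nd3 (0.76), mt-Nd5 (0.76), mt-Nd6 (0.50) and mt-Nd4 (0.48) were called higher, with adjusted p of 0.0141, 0.00847, 0.0134 and 0.0258 by edgeR. mt-Nd6, the only protein gene of the set on the other strand of the mitochondrial genome, was at 52.4, 48.5 and 45.3 CPM in control mice and 66.8, 86.1 and 75.3 CPM in stress mice. mt-Nd1 was not called (log2 fold change 0.05, SE 0.12, adjusted p = 0.80 by edgeR). Its groups overlapped, at 2662 to 3277 CPM in control and 3193 to 4022 CPM in stress mice.

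mt-Cytb, the cytochrome b of complex III, was called higher at the edge of the threshold, with a log2 fold change of 0.52 (SE 0.15, adjusted p = 0.0489 by edgeR). The 3 catalytic core subunits of complex IV were not called with the scaling of the test (TMM), while mt-Co1 (0.51, adjusted p = 0.0433 by edgeR) and mt-Co2 (0.45, adjusted p = 0.0321 by edgeR) were called higher with library totals as the only scaling. mt-Co1 was at 3752, 3430 and 4316 CPM in control mice and 5419, 4597 and 6303 CPM in stress mice, which did not overlap (0.36, SE 0.16, adjusted p = 0.147 by edgeR). mt-Co2 had a log2 fold change of 0.30 (adjusted p = 0.135 by edgeR) and mt-Co3 one of 0.02 (adjusted p = 0.945 by edgeR). mt-Atp6, the proton channel subunit of complex V that shares its transcript with mt-Atp8, was at 10880.4, 11953 and 13772 CPM in control mice and 14960.0, 15805 and 14414 CPM in stress mice (0.16, SE 0.13, adjusted p = 0.419 by edgeR).

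**Figure D2:**
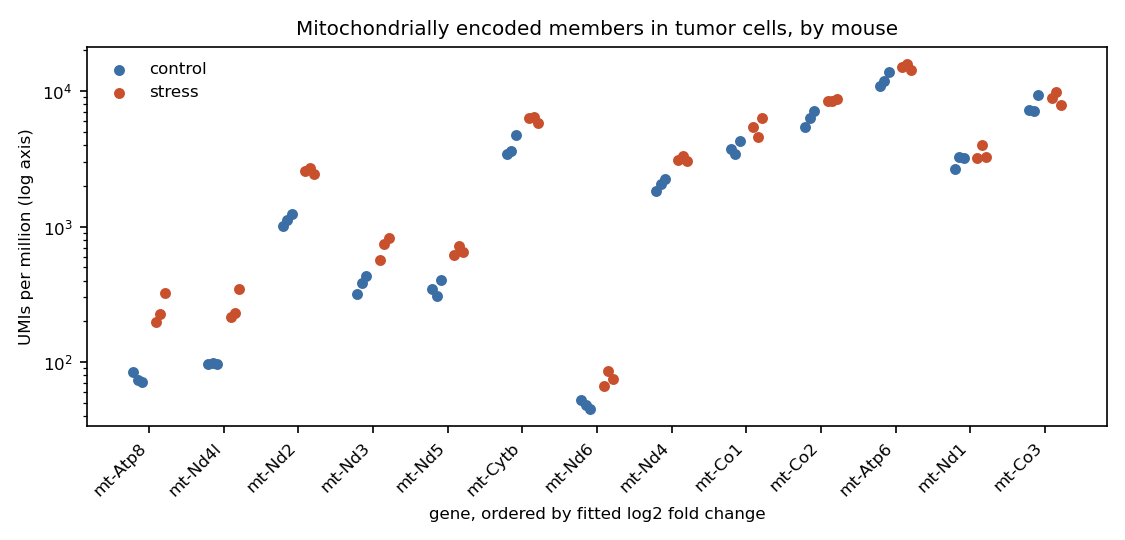
CPM (log axis) of the 13 mitochondrial genes in tumor cells, with 1 point per mouse, ordered by fitted log2 fold change. mt-Atp8, mt-Nd4l and mt-Nd2 stand at the left with fold changes of 1.56, 1.30 and 1.06 on the log2 scale, and mt-Nd1 and mt-Co3 stand at the right with overlapping groups.

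In tumor cells 16 of 86 nuclear genes were called (18.6%, beside 21.4% of all genes), of which 3 were higher and 13 lower in stress mice. The median log2 fold change of the nuclear genes was -0.12. The split between higher and lower calls depended on the scaling. The trimmed mean of M values (TMM) used by the test set the stress libraries 0.14 (log2) higher in effective size than the control libraries. With library totals as the only scaling, the median over all genes moved from -0.01 to 0.13 and the nuclear median from -0.12 to 0.02. Nuclear calls then numbered 5 higher and 1 lower, mitochondrial calls 10 higher and 0 lower, and calls over all genes 2710 higher and 605 lower, against 2258 and 1783 with TMM. The nuclear count also varied with the mice used. It fell to 1 without control mouse 1 or control mouse 3, to 2 without stress mouse 2 and to 3 without stress mouse 3. It was 11 without stress mouse 1 and 16 without control mouse 2. The shares of all genes called with a mouse left out were not counted. DESeq2 called 22 nuclear genes, 2 higher and 20 lower, of 5242 genes in all.

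The lowest nuclear member was Cox5b-ps, a short copy of the complex IV subunit gene Cox5b on chromosome 13 (21501029 to 21501418, minus strand, GRCm38). It was at 49.2, 39.9 and 45.3 CPM in control mice and 24.0, 21.7 and 18.03 CPM in stress mice (fitted log2 fold change -1.21, SE 0.15, adjusted p = 0.00468 by edgeR), and it was the single nuclear gene called lower under both scalings. Reads of such copies can be shared with the parent gene, so its counts are uncertain. Cox5b itself was at 425 to 453 CPM in control and 409 to 495 CPM in stress mice (-0.12, adjusted p = 0.50 by edgeR). All stress mice were below all control mice for Cox5b-ps in each of these 8 classes, though it passed the filter in 7 of them and not in B cells.

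The other genes called lower had log2 fold changes between -0.51 and -0.26 with TMM and none was called with library totals. They included Ndufv1, the NADH-binding subunit of complex I, at 69.9, 59.6 and 74.2 CPM in control and 58.2, 55.0 and 44.8 CPM in stress mice (-0.51, SE 0.15, adjusted p = 0.0455 by edgeR). Atp5f1a and Atp5f1b, the alpha and beta subunits of the ATP synthase, were at -0.41 and -0.36. Atp5f1b was at 776, 813 and 819.7 CPM in control and 721, 724 and 629 CPM in stress mice. The groups did not overlap either for Cox6b1 (-0.41), Atp5mj (-0.40), Ndufs6 (-0.39), Uqcr10 (-0.38), Atp5mg (-0.38) and Atp5mf (-0.26). Uqcr11 (-0.26) and Sdha (-0.33) were called with overlapping CPM.

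Of the succinate dehydrogenase genes of complex II, Sdhc, a membrane anchor, was at 89.7, 82.1 and 91.3 CPM in control and 71.2, 76.6 and 64.6 CPM in stress mice (-0.45, SE 0.10, adjusted p = 0.021 by edgeR). With library totals Sdhc was at -0.31 and not called (adjusted p = 0.0605 by edgeR). Sdha, the catalytic flavoprotein, was called with TMM only (adjusted p = 0.0369 by edgeR). Sdhb, the iron-sulfur subunit, had a log2 fold change of -0.07 and Sdhd, the other anchor, one of -0.05, and neither was called.

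The 3 nuclear genes called higher were all of complex V and were also called with library totals. Atp5me, a small membrane subunit, was at 114, 120 and 108 CPM in control and 135, 175 and 199 CPM in stress mice (fitted log2 fold change 0.43, SE 0.12, adjusted p = 0.0403 by edgeR). Atp5mc2, a gene for the c subunit of the rotor, went from 25.0, 25.0 and 22.6 CPM to 32.5, 32.1 and 32.8 CPM (0.28, SE 0.08, adjusted p = 0.0499 by edgeR). The related genes Atp5mc1 and Atp5mc3 averaged 619 and 387 CPM in tumor cells, beside 28.3 CPM for Atp5mc2. Neither Atp5mc1 nor Atp5mc3 was called with TMM or with library totals. Atp5po stands in the tables under 2 gene identifiers whose annotated spans overlap on chromosome 16, and the one called was the minor of them, at 5.29 to 5.77 CPM in control and 7.67 to 8.66 CPM in stress mice, with uncertain counts.

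The nuclear genes with the highest mean over the classes were Cox4i1 (821 CPM), Cox8a (766 CPM), Ndufa4 (741 CPM), Cox5a (649 CPM) and Cox7c (645 CPM), counted as 3′ UMIs and not divided by length. None of these was called in tumor cells. Cox4i1, the ubiquitous form of the largest nuclear subunit of complex IV, had a log2 fold change of -0.05 (SE 0.12) and Cox8a one of -0.30 (SE 0.09, adjusted p = 0.0588 by edgeR). Cox7c was at 987 to 1029 CPM in control and 1142 to 1489 CPM in stress mice (0.21, adjusted p = 0.246 by edgeR).

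In the other classes most calls were in the mitochondrial set. In ECs 2 mitochondrial and 0 nuclear genes were called, with 0.213% of 14090 genes called in all. mt-Atp8 rose from 65.7, 62.2 and 47.3 CPM to 173, 207 and 214 CPM in ECs (log2 fold change 1.74, SE 0.14, adjusted p = 0.0101 by edgeR), and mt-Nd4l from 76.8, 81.9 and 64.5 CPM to 165, 178 and 218 CPM (1.31, SE 0.14, adjusted p = 0.0271 by edgeR). No EC gene of either set was called without control mouse 1, stress mouse 2 or stress mouse 3. With the replicate number as a block, 5 genes were called in ECs, adding mt-Nd2 (0.98, adjusted p = 0.0313 by edgeR) and mt-Nd3 (0.83, adjusted p = 0.049 by edgeR), and Cox5b-ps as lower (-1.21, adjusted p = 0.0268 by edgeR). The 0.213% of all genes is the share with all mice and without the block. The shares with the block or with a mouse left out were not counted. In monocytes mt-Atp8 alone was called (1.81, SE 0.21, adjusted p = 0.034 by edgeR), with 0.122% of 12251 genes called, and it was lost without control mouse 1, control mouse 3, stress mouse 2 or stress mouse 3. With the block 5 genes were called in monocytes, adding mt-Nd2 (1.198), mt-Nd4l (1.44) and mt-Nd5 (0.94) as higher and Cox5b-ps (-0.93) as lower. The 0.122% likewise belongs to the fit with all mice and without the block. The shares with the block or with a mouse left out were not counted.

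In DCs 5 mitochondrial genes were called higher (mt-Nd2, mt-Atp8, mt-Nd3, mt-Nd4l and mt-Nd5), and of the nuclear genes Ndufa1 was higher and Cox5b-ps lower. The groups differed in the clusters that made up the class, with cluster 20 holding 25.3%, 40.5% and 25.9% of DCs in the controls and 50.4%, 63.3% and 52.2% in the stress mice. In cluster 20 alone none of the 7 genes was called by edgeR, with fitted log2 fold changes of 1.14 for mt-Atp8, 1.10 for mt-Nd2 and -1.15 for Cox5b-ps. All 7 had an unadjusted p under 0.05 by edgeR there, but they were picked in DCs that hold these same cells. The share of all genes at that p in cluster 20 was not counted. In DCs with 2000 to 20000 UMIs 1 gene was called. Of 10533 genes 2.64% were called in DCs, 2.13% higher and 0.513% lower. Ndufa1, a small subunit of complex I, was at 72.6, 93.4 and 78.5 CPM in control and 108, 126 and 138 CPM in stress mice (0.71, SE 0.16, adjusted p = 0.0379 by edgeR). With library totals Ndufa1 was not called in DCs but was called in tumor cells (0.37, adjusted p = 0.0343 by edgeR). mt-Nd2 was at 814, 837 and 823 CPM in control and 1378, 1934 and 1565 CPM in stress mice in DCs (1.09, SE 0.15, adjusted p = 0.00405 by edgeR). In M-MDSCs it was at 1067, 1085 and 1049 CPM and then 2768, 2927 and 2184 CPM (1.29, SE 0.14, adjusted p = 0.00111 by edgeR), without overlap in either class. NK/T cells had mt-Nd2, mt-Atp8, mt-Nd4l and mt-Nd5 called higher, with 0.857% of 11196 genes called. With the block 5 mitochondrial and 2 nuclear genes were called higher in NK/T cells, adding mt-Nd3 (0.81), Atp5me (0.76) and Ndufb1 (0.54). The share of all genes called there with the block was not counted. M-MDSCs had mt-Nd2, mt-Atp8, mt-Nd4l, mt-Nd5, mt-Nd3 and mt-Nd4 called higher, with 0.561% of 9443 genes called. B cells had mt-Atp8 called higher, with 0.483% of 5796 genes called. The make-up of the B cell class differed between the mice, as given with Cox6a2 below. The 0 nuclear calls by edgeR in ECs, monocytes, NK/T cells, B cells and M-MDSCs stand beside 16 of 82, 13 of 85, 15 of 82, 3 of 79 and 8 of 82 nuclear genes at an unadjusted p under 0.05, where 15.6%, 12.0%, 13.1%, 11.1% and 9.56% of all genes tested were. DESeq2 called 1, 1, 3, 0 and 1 nuclear genes there, of 368, 168, 172, 67 and 82 genes in all. Without control mouse 1 or stress mouse 3 the count in DCs was 4 or 3. The NK/T, B, M-MDSC and inflammatory myeloid cells together had 11 called genes with all mice. They had 7 without control mouse 1 and 5 without control mouse 3. The shares of all genes called with a mouse left out were not counted.

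In inflammatory myeloid cells no gene was called by edgeR (0% of 9219 genes, with 365 at an unadjusted p under 0.05 and 5 called by DESeq2, none of them a respiratory chain gene). The values of mt-Atp8 there were 53.0, 41.9 and 23.9 CPM in control and 122, 150 and 74.0 CPM in stress mice, giving a fitted log2 fold change of 1.66 (SE 0.38, adjusted p = 0.813 by edgeR). Among the 8 tested classes, mt-Atp8 and mt-Nd4l had the 2 largest and mt-Nd2 the third largest fold change of the 13 genes in each. The classes come from the same 6 mice and libraries and are not independent of each other.

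Whether the stress effect differed between classes was tested in a fit of both classes with the mouse as a block. Between tumor cells and ECs 0 of 13 mitochondrial and 0 of 87 nuclear genes differed, where 0.161% of 19841 genes did, and 0 and 3 of them had an unadjusted p under 0.05, beside 12.0% of all genes. Between tumor cells and monocytes the counts were again 0 of 13 and 0 of 87, where 0.0764% of 19624 genes differed, and 0 and 1 of them had an unadjusted p under 0.05, beside 7.44% of all genes. The differences for the mitochondrial genes ran from -0.11 to 0.19 (tumor cells minus ECs) and from -0.31 to 0.10 (tumor cells minus monocytes) on the log2 scale. A difference that missed the threshold does not show that the effects were equal.

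**Figure D3:**
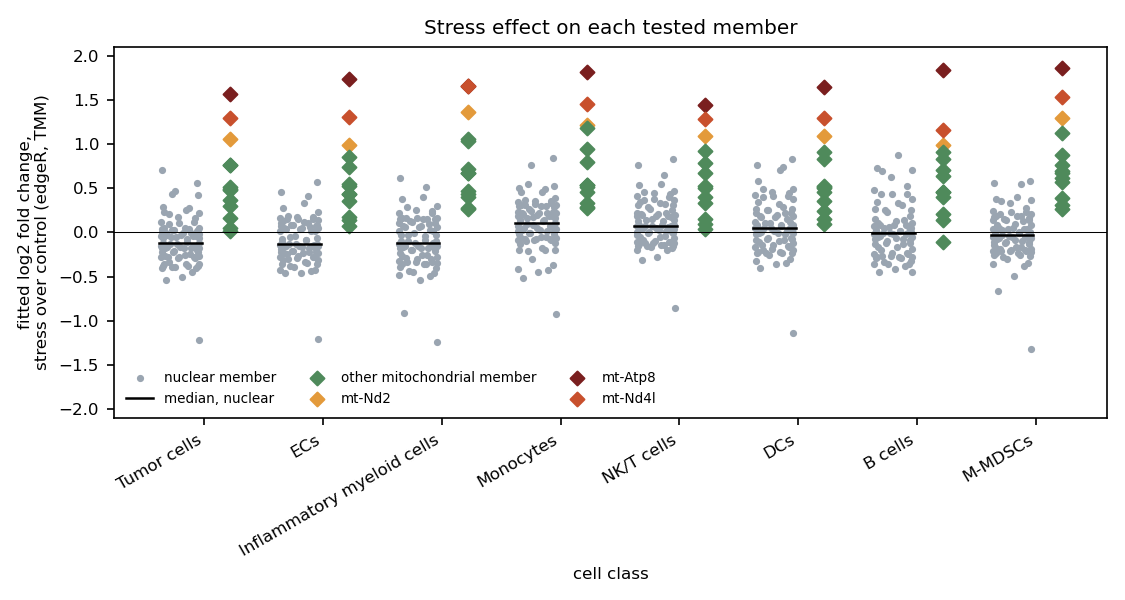
Fitted log2 fold change, stress over control, of each tested nuclear gene (grey points, with their median as a line) and each of the 13 mitochondrial genes (diamonds) in 8 classes. mt-Atp8, mt-Nd4l and mt-Nd2 lead in each class with values between 0.99 and 1.87, and the lowest grey point in 7 of the 8 classes, all but B cells, is Cox5b-ps.

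Within the mitochondrial UMIs the balance of the genes differed between the groups, which does not depend on the scaling of libraries. mt-Nd2 took 2.70%, 2.80% and 2.63% of the mitochondrial UMIs of tumor cells in the controls and 4.70%, 4.75% and 4.49% in stress mice. mt-Atp8 took 0.226%, 0.184% and 0.151% in control and 0.365%, 0.398% and 0.593% in stress mice, and mt-Nd4l 0.259%, 0.246% and 0.207% and then 0.395%, 0.401% and 0.640%. mt-Co3 took 19.1% on average in the controls and 16.01% in the stress mice, and mt-Atp6 took 29.5% and 27.2%, both without overlap. mt-Co2 was at 15.2% ± 0.621 and 15.5% ± 0.619. mt-Nd2, mt-Atp8, mt-Nd4l, mt-Nd5 and mt-Atp6 did not overlap between the groups in any of 8 tested classes.

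The overlapping pairs allow a comparison of genes known to share a transcript. Of the UMIs assigned to mt-Atp8 or mt-Atp6 in tumor cells, mt-Atp8 held 0.767%, 0.609% and 0.512% in the controls and 1.31%, 1.42% and 2.18% in stress mice. Of the UMIs assigned to mt-Nd4l or mt-Nd4, mt-Nd4l held 4.97%, 4.56% and 4.12% in control and 6.51%, 6.48% and 10.2% in stress mice. In each of 8 classes all stress mice were above all control mice for both pairs. Both genes of a pair are known to lie on a single RNA, but read positions and transcript forms were not examined, and the cause was not tested. The group and the Cell Ranger version cannot be told apart in these values.

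Tumor cells formed 10 clusters, and the clusters differed in both sets. The mean nuclear share of the control mice ran from 1.92% in cluster 17 to 3.69% in cluster 21. Within a cluster its coefficient of variation over the 6 mice had a median of 2.67%, from 1.26% in cluster 1, with 3.02% to 3.10% in all mice, to 10.2% in cluster 17, with 1.55% to 1.99%. The mitochondrial share had a median coefficient of variation of 17.8%, again over the mice of both groups. In cluster 17 it varied by 9.51%, less than the nuclear share there. It was higher on average in stress mice in 9 of 10 clusters and did not overlap between the groups in 7. Cluster 9 had the highest values, with 6.85% ± 0.930 in control and 9.11% ± 0.271 in stress mice. Cluster 17, the one with the lowest depth (median 1852 UMIs), was at 5.86% ± 0.854 and 5.79% ± 0.187, and cluster 21 at 6.28% ± 1.01 and 6.75% ± 1.16.

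**Figure D4:**
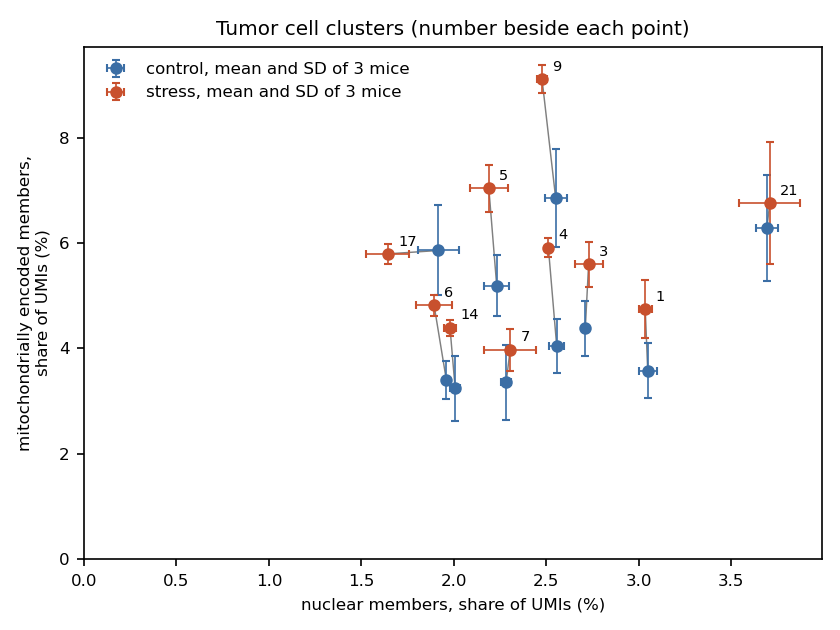
Mean share of UMIs (%) from the nuclear (x axis) and mitochondrial (y axis) genes in each of 10 tumor cell clusters, control and stress joined by a line, with the SD of 3 mice as bars. Most lines run upward and nearly vertical, as in cluster 4 from 4.05% to 5.91% mitochondrial at 2.56% and 2.51% nuclear, and cluster 17 runs sideways.

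The difference in mitochondrial share also varied with the depth of the cell. Tumor cells with 20000 to 40000 UMIs held 3.65%, 3.89% and 4.85% mitochondrial UMIs in the controls and 5.51%, 5.77% and 5.53% in stress mice. In cells with 10000 to 20000 UMIs the groups were at 5.11% ± 1.28 and 7.48% ± 0.113. In cells with 2000 to 5000 UMIs the control mice were at 7.88%, 8.05% and 5.93% and the stress mice at 7.32%, 6.82% and 6.43%, with overlap and no higher mean under stress. In the shallowest cells, below 2000 UMIs, the controls were at 3.47%, 4.40% and 4.54% and the stress mice at 6.43%, 5.32% and 5.45%, without overlap. The nuclear share in the 20000 to 40000 range was 2.51% and 2.45% on average. Cells above 20% mitochondrial UMIs had been removed by the authors before deposit of the annotation, which limits how far either group can reach. Tumor cells above 10% were 1.73%, 3.48% and 4.78% of the cells in the controls and 10.6%, 8.79% and 10.5% in stress mice.

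Several nuclear subunits have tissue-restricted isoforms, and some of these were highest in small groups of cells. Ndufa4l2, a paralog of Ndufa4 known to be induced in low oxygen and expressed in pericytes and related mural cells, averaged 299 CPM in HSCs, 3.599 CPM in monocytes and at most 0.22 CPM in the other classes. It was found in each HSC sample, at 517, 71.8 and 363 CPM in control and 236, 249 and 356 CPM in stress mice. The 128 HSCs held 647 of the 876 Ndufa4l2 UMIs of all annotated cells (73.9%). Ndufa4 was present in all classes, from 390 CPM in inflammatory myeloid cells to 1192 CPM in tumor cells. Cox4i2, the lung and low-oxygen form of Cox4i1, averaged 19.6 CPM in HSCs, 7.09 CPM in monocytes and 0.13 CPM in tumor cells. In HSCs it was at 20.01, 0 and 0 CPM in control and 61.4, 24.9 and 11.1 CPM in stress mice, from 48 of the 484 Cox4i2 UMIs of all annotated cells, and the mean without stress mouse 1 was 11.2 CPM.

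Cox6a2, the heart and muscle isoform of Cox6a1, averaged 59.3 CPM in the B cell class and at most 2.77 CPM elsewhere. The class held 254 of the 865 Cox6a2 UMIs of all annotated cells (29.4%). Its level in that class was 14.2, 59.3 and 50.5 CPM in control mice and 35.2, 133 and 63.5 CPM in stress mice. Of 457 cells of the class 53 had a Cox6a2 UMI. Of these, 48 also had a UMI of Siglech, known as a plasmacytoid dendritic cell gene and chosen here after its values were seen, and 2 had a UMI of the B cell gene Cd79a, which 349 of the 457 cells carried. A Siglech UMI was in 0 of 20, 8 of 114 and 6 of 68 cells of the class in control mice. In stress mice it was in 6 of 51, 27 of 93 and 15 of 111, so the make-up of the class differed between the mice. Cox6a1 was at 174 CPM in the class and between 119 and 257 CPM in all 10 classes.

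Cox7b2, a testis form of Cox7b chosen after its values were seen, averaged 178 CPM in tumor cells, beside 204 CPM for Cox7b. It averaged 172 CPM in M-MDSCs, 108 CPM in DCs and 20.5 CPM in HSCs, its lowest class. In tumor cells Cox7b2 was at 174, 159 and 167 CPM in control and 186, 188 and 195 CPM in stress mice, without overlap, but was not called (log2 fold change 0.04, SE 0.09). Cox7a1, the muscle form of Cox7a2, was highest in tumor cells (22.1 CPM) and did not differ beyond the spread of the mice there (-0.05, SE 0.12). Cox7a2 (-0.17) and the supercomplex factor Cox7a2l (-0.28, adjusted p = 0.0599 by edgeR) were not called, nor was Cox6a1 (0.02). Cox6b2, a testis form of Cox6b1, was at 5.67 CPM or less in each class. Cox8b and Cox8c had at most 6 UMIs in all annotated cells.

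**Figure D5:**
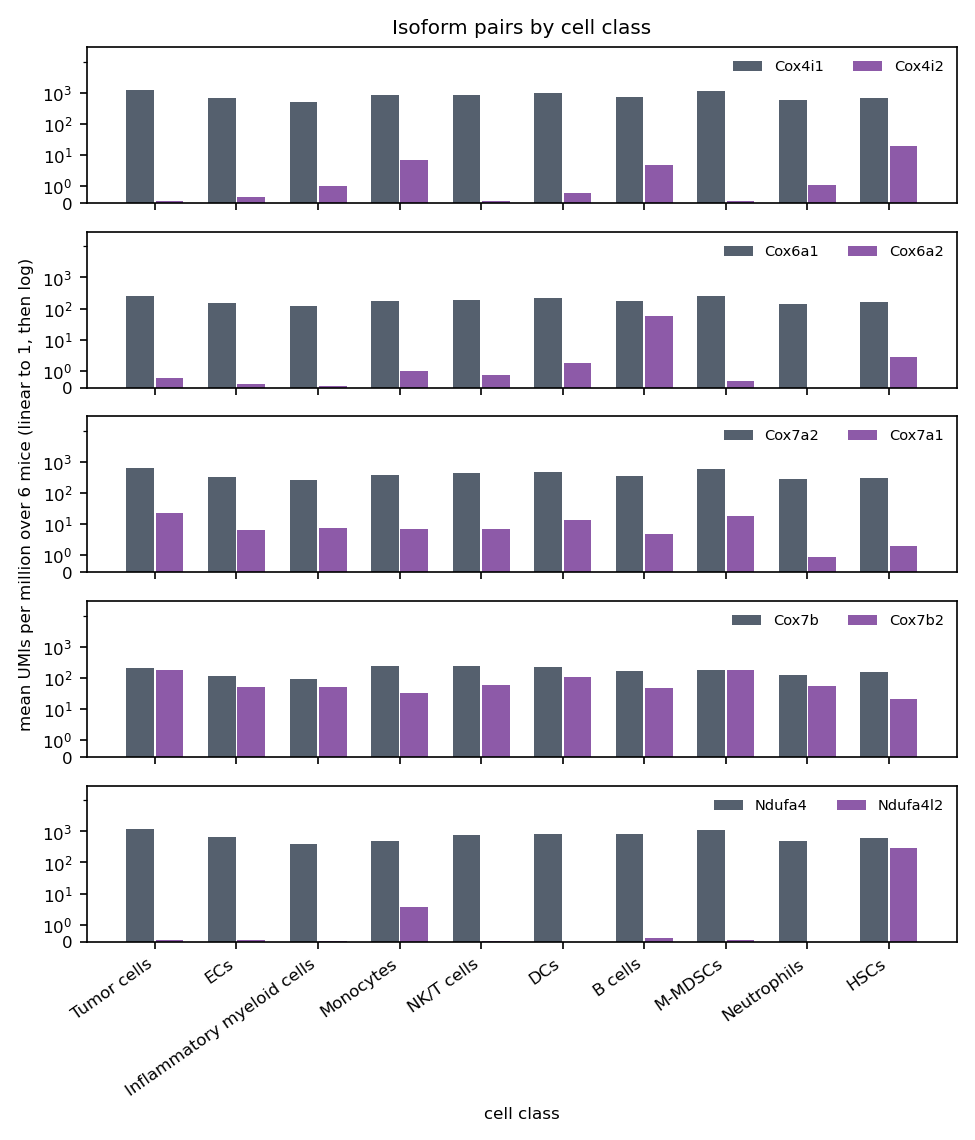
Mean CPM over 6 mice (axis linear to 1, then log) of 5 widely expressed subunits (grey) and their restricted isoforms (purple) in 10 classes. Ndufa4l2 reaches 299 CPM in HSCs and Cox6a2 59.3 CPM in the B cell class, while Cox7b2 is at 178 CPM in tumor cells, 172 CPM in M-MDSCs and 108 CPM in DCs.

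Promoters of the nuclear genes were searched for motifs of factors known to bind respiratory genes. RefSeq promoters (GRCm38.p6, 300 bases, 250 before to 50 after the start) were matched for 72 nuclear genes with 71 promoters. On either strand, the NRF1 core GCATGCGC was in 14.1% of them (10 of 71) and in 3.05% of 27025 promoters. The YY1 motif AAGATGGCG was in 9.86% (7 of 71) and 1.64%, and the estrogen-related receptor motif AAGGTCA in 12.7% (9 of 71) and 5.38%. Atp5me, higher in stress mice, and Atp5mg, lower with TMM, are shown because both hold the NRF1 and the AAGGTCA letters, which are in capitals.
Atp5me, chr5:108434350-108434649, minus strand: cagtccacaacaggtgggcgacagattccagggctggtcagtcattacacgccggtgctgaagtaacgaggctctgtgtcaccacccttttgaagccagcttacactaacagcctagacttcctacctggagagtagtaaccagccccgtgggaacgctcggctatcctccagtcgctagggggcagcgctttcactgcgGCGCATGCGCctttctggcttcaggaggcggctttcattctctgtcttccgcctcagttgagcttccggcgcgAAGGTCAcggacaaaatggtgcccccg
Atp5mg, chr9:44920693-44920992, minus strand: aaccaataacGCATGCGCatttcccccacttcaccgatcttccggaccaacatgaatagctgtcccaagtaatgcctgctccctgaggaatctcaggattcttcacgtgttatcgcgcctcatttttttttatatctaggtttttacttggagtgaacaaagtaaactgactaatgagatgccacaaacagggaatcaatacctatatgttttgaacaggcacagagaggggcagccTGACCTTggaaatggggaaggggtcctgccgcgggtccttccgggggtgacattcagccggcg
In Atp5me the NRF1 letters overlap on the 2 strands, and in Atp5mg the TGACCTT is AAGGTCA on the other strand. A match describes letters only.

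Genes that serve the chain without being subunits were taken from lists chosen with earlier results known. Of 30 genes for upkeep and expression of the mitochondrial genome, 2 were called higher and 3 lower in tumor cells, with a median log2 fold change of -0.13. Tfb1m, a methyltransferase of mitochondrial ribosomal RNA, was at 5.85, 4.82 and 5.19 CPM in control and 11.5, 15.04 and 13.6 CPM in stress mice (1.19, SE 0.13, adjusted p = 0.00392 by edgeR). Fastk, a kinase family member with a mitochondrial form that acts on mt-Nd6 RNA, was at 62.3, 54.5 and 56.8 CPM and then 43.6, 45.5 and 36.2 CPM (-0.61, SE 0.12, adjusted p = 0.0138 by edgeR). Top1mt, the mitochondrial topoisomerase, was at -0.56 (adjusted p = 0.026 by edgeR).

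Of 44 assembly factors and cytochrome c genes found, 0 were called higher and 3 lower in tumor cells (median -0.05): Ndufaf8 (-0.46), Cox14 (-0.42) and Uqcc2 (-0.31). Cox17, the copper chaperone of complex IV, is named by its calls outside tumor cells. It was the 1 gene called of 44 tested in NK/T cells (0.87, adjusted p = 0.034 by edgeR). In DCs it was the 1 called of 43 (0.92, adjusted p = 0.0409 by edgeR), and it was higher in both. Of 10 nuclear regulators, 0 were called higher and 1 lower in tumor cells (median -0.06). The lower gene was the coactivator Ppargc1b (-0.46, adjusted p = 0.0488 by edgeR, but 0.13 in cells with 2000 to 20000 UMIs). Hif1a, also named by its call, was the 1 gene called of 10 in NK/T cells, where it was higher (0.80, adjusted p = 0.0399 by edgeR). These counts stand beside 12% of all genes called higher and 9.46% lower in tumor cells, and use TMM. In either direction 0.857% of all genes were called in NK/T cells and 2.64% in DCs.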

How the data were processed

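Single-cell 3′ UMI counts of tumor tissue from 3 control and 3 stress mice were analysed. The deposited matrices hold raw UMI counts per gene and barcode, made by the authors with Cell Ranger 9.0.0 (control) and 7.1.0 (stress) per the file headers. The submitters' processing notes name mm10, Cell Ranger and Seurat. Cell classes and clusters were taken from the deposited annotation, which holds only barcodes with at most 20% mitochondrial UMIs and from which the authors had removed doublets with Scrublet, per the study's methods. No further doublet caller was run. Groups came from the treatment label, with 1 library per mouse.

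UMIs were summed per mouse and class. The test, for classes with at least 10 cells in every mouse, was the quasi-likelihood F test of edgeR (version 4.0.16, R 4.3.3) after filterByExpr and TMM, with Benjamini-Hochberg adjustment over all genes tested and a threshold of 0.05. The difference between classes was tested as an interaction with the mouse as a block. Shares and CPM are per library and class, as mean ± SD. The code was tested on simulated data. Alternatives were DESeq2 1.42.0, RLE factors, no filter, a replicate block, leaving out each mouse, leaving out the mitochondrial genes, at most 10% mitochondrial UMIs, 2000 to 20000 UMIs, and cluster choices. Scaling by library totals was added after seeing the data. The genes and lists were chosen with earlier results of these data known. Named genes were all 13 mitochondrial genes, Sdha to Sdhd, isoform pairs, up to 10 nuclear genes per class with the largest called change and no overlap, the 5 nuclear genes with the highest mean, and up to 3 per further list. Cox17 and Hif1a were named by calls outside tumor cells, Uqcr11 as a further called gene, and Cox5b, Atp5mc1 and Atp5mc3 as relatives. Others are marked where they stand. Positions are from GENCODE M21 (GRCm38), which held 102 of 103 gene identifiers. Annotated cells held 149558935 to 187728350 UMIs per library, and the tested classes at least 15 cells per mouse. Same-numbered mice deviated from their group means together (every correlation over 0.1) in ECs, monocytes and NK/T cells, where values with the replicate number as a block are given beside the results, and not in the other 5 classes. The labels state no pairing of these mice. The citric acid cycle list is not reported here.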

Additional observations from a re-analysis of the deposited data

Results flagged for a closer look

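The barcodes left out of the annotation with more than 20% mitochondrial UMIs entered no comparison above. For the 3 genes with the largest fold changes in annotated tumor cells, they held a difference between the groups of the same kind. There were 248, 353 and 321 of these barcodes in the control libraries and 460, 423 and 352 in the stress libraries, and these counts overlapped. Of their mitochondrial UMIs mt-Nd2 took 2.44%, 2.55% and 2.50% in control and 4.21%, 4.34% and 3.91% in stress libraries (stress mean 4.15%). mt-Atp8 took 0.233%, 0.221% and 0.184% in control and 0.528%, 0.647% and 0.787% in stress libraries (stress mean 0.654%). mt-Nd4l took 0.210%, 0.236% and 0.198% in control and 0.469%, 0.452% and 0.693% in stress libraries (stress mean 0.538%). All stress libraries were above all control libraries for these 3 genes. The difference was not tested, and the group and the Cell Ranger version cannot be told apart here either.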

How the results depend on the processing

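The count of mitochondrial genes called in tumor cells was between 6 and 10 under the alternatives tried, all in the higher direction. Other counts moved more. Nuclear genes called in tumor cells (16) ranged from 1 to 16 when a mouse was left out. They were 2 with cells of 2000 to 20000 UMIs and 6 with library totals, of which 4 were among the 16. They were 11 with RLE factors, 12 at most 10% mitochondrial UMIs and 13 with no filter. DESeq2 called 22 of them, 2 higher and 20 lower, of which 15 were among the 16. Called genes in ECs (2) numbered 0 to 2 without a mouse, and 5 with no filter, 7 by DESeq2, and 5 with the replicate block. In DCs (7) they numbered 3 to 6 without a mouse, 12 with no filter, 12 by DESeq2, 14 with the replicate block, 1 with 2000 to 20000 UMIs and 0 in cluster 20 only. In monocytes (1) they numbered 0 to 2 without a mouse, 6 with no filter, 6 by DESeq2, 5 with the replicate block and 2 with 2000 to 20000 UMIs. In NK/T cells, B cells, M-MDSCs and inflammatory myeloid cells (11 in all) they numbered 5 to 11 without a mouse, 24 with no filter, 23 by DESeq2, 19 with the replicate block and 7 with 2000 to 20000 UMIs, where M-MDSCs kept as few as 2 cells in a mouse. DESeq2 called 354 genes in all in DCs and 5242 in tumor cells. Beyond DESeq2 and library totals, calls over all genes were not counted for any alternative, those with a mouse left out among them. With the mitochondrial genes left out only nuclear genes can be called, and the counts were 0 in ECs, 2 in DCs, 0 in monocytes and 0 in the other 4 classes together. Both counts of class differences were 0 under each alternative run. Apart from these constructions the cause of the changes was not tested.

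The correlations of deviations of same-numbered mice were 0.66, 0.55 and -0.25 in tumor cells for numbers 1, 2 and 3, but 0.67, 0.48 and 0.10 in ECs, 0.66, 0.56 and 0.20 in monocytes and 0.24, 0.30 and 0.16 in NK/T cells. All 3 were over 0.1 in these 3 classes and not in the other 5. Agreement by number thus differed between classes of the same mice. Some unlike-numbered mice reached similar values. These were 0.22 for control mouse 3 and stress mouse 1 in ECs, and 0.22 for control mouse 2 and stress mouse 3 in both ECs and monocytes. Most other unlike-numbered values in these classes were negative. In tumor cells control mouse 3 and stress mouse 1 reached 0.67, beside 0.66 for the mice numbered 1. Whether the mice were paired was not tested. With the replicate block 9 mitochondrial and 22 nuclear genes were called in tumor cells. All 9 were higher, while 2 of the nuclear genes were higher and 20 lower. The share of all genes called with the block was not counted, and the 21.4% given for tumor cells is without it. The mitochondrial share difference in tumor cells (1.40 percentage points) was 2.16 with 2000 to 20000 UMIs and 1.19 to 1.68 without a mouse. The nuclear share difference there (-0.00237) was -0.0488 with equal weight over clusters and -0.0241 to 0.0290 without a mouse, and in ECs (-0.0926) it was 0.0187 as a mean over cells. The EC mitochondrial difference (0.779) was 0.532 to 1.02 without a mouse.

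Fold changes that turned sign were of genes near 0 and not called, apart from Ppargc1b, which was at 0.13 with 2000 to 20000 UMIs. mt-Co3 was at -0.0012 with no filter, -0.0081 by DESeq2 and -0.050 at most 10% mitochondrial UMIs, and Cox6a1 at -0.0014 with no filter and -0.0091 by DESeq2. With library totals Cox4i1 was at 0.090, Cox7a1 at 0.097, Sdhb at 0.073 and Sdhd at 0.087, and Sdhb was at 0.027 with 2000 to 20000 UMIs. Without a mouse the ranges were -0.073 to 0.16 for mt-Co3, -0.038 to 0.11 for mt-Nd1, -0.056 to 0.089 for Cox6a1, -0.15 to 0.014 for Cox4i1, -0.13 to 0.054 for Cox7a1, -0.14 to 0.0028 for Sdhb and -0.098 to 0.022 for Sdhd.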
